A study of Homo sapiens with 8 samples.

Results

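A set of 8 genes that buffer, move or read calcium inside cells was followed across prostate cancer lines before and after epithelial-to-mesenchymal transition (EMT): the calbindin CALB1 and its relative CALB2 (calretinin), the mucolipin channels MCOLN1, MCOLN2 and MCOLN3, the kinase inhibitor CAMK2N1, and the CaM kinase II subunits CAMK2D and CAMK2G. Members were all probe sets annotated to 1 of these symbols alone, which gave 22 of the 54613 probe sets that are not controls, for 8 of 19775 genes. The genes were picked because CALB1, MCOLN3 and CAMK2N1 fell strongly in the EMT lines, so their differences between EMT lines and PC3-Epi are given as a description with no test.

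Each of 8 samples was read on 1 Affymetrix U133 Plus 2.0 array. PC3-Epi (1 array) is an epithelial population selected from the human prostate cancer line PC3 carrying a luciferase vector, with no shRNA. The EMT lines PC3-EMT1, -EMT12 and -EMT14 (1 array each, no shRNA) are mesenchymal populations derived from PC3-Epi, isolated after co-culture with human macrophages grown from donor monocytes, and they carry the same luciferase vector. PC3-EMT1 and PC3-EMT14 were also transduced with a lentiviral scrambled control (Scr, 1 array per line) or with sh4, an shRNA against the transcription factor ZEB1 (1 array per line). All were cultured in RPMI medium with 5% serum per the labels (the study's methods give another percentage) and left to recover 2 days after plating. Values of the EMT lines are given throughout in the order 1, 12 and 14. The mesenchymal group rests on 3 populations from 1 parent array, and the silencing of ZEB1 on 1 hairpin in 2 lines.

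Calcium ions act as a signal in the cytosol, where their level is kept low. Calbindin and calretinin are EF-hand proteins that bind calcium and blunt its rises. Mucolipins are channels of the TRP family in endosomes and lysosomes that release calcium from these compartments. CaM kinase II is a holoenzyme of related subunits that is switched on by calcium-loaded calmodulin, and CAMK2N1 is a small protein that inhibits it.

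The values are log2 intensities, so 1 unit is 2-fold. Levels could not be compared between the transduced and untransduced arrays, whose scales differ: the median over all probe sets was 4.33 to 4.35 on the untransduced arrays and 6.19 to 6.23 on the transduced ones. Background was taken from 27 probe sets for bacterial transcripts, of which the highest read 4.56 on any untransduced and 6.00 on any transduced array. A value under that limit is called at background here. ZEB1 (212764_at) was 3.08 in PC3-Epi and 6.50 to 7.12 in the EMT lines. Within the transduced set, ZEB1 was 9.87 with Scr and 9.12 with sh4 in PC3-EMT1, and 10.08 and 9.01 in PC3-EMT14, a mean difference of −0.91 that missed the threshold in limma (SE 0.15, adjusted p = 0.0637). The epithelial adhesion gene CDH1 was lower in the EMT lines (log2 difference −7.74, limma adjusted p = 0.000183) and higher with sh4 than with Scr (3.94, limma adjusted p = 0.00102). The epithelial markers ESRP1, EPCAM and CLDN7 moved the same way (−8.13, −3.35 and −3.62, and 3.81, 1.97 and 1.20 with sh4). Epithelial KRT8 and KRT18 differed by −0.61 and −0.48 in the EMT lines and were not called. Mesenchymal VIM and CDH2 were higher in the EMT lines (1.91 and 0.74), while FN1 differed by −0.37. With sh4, VIM differed by −0.33, FN1 by −0.97 and CDH2 by 0.46. None of 9 macrophage markers was above the highest bacterial control on an untransduced array, where the highest read 4.55, and their median was 3.39 in PC3-Epi and 3.32 to 3.53 in the EMT lines. On the transduced arrays 3 of the 9 were above it, up to 6.79, with medians of 5.57 to 5.65 with Scr and 5.40 to 5.50 with sh4.

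The word silenced fits only some of the genes. CALB1, MCOLN3 and CAMK2N1 went from clear signals in PC3-Epi to background in all 3 EMT lines, CALB2 and MCOLN2 were lower but mostly still measured, CAMK2D was nearly level, and MCOLN1 and the 2 brightest CAMK2G probe sets were higher in the EMT lines. Of the 22 probe sets, 9 were at least 2-fold lower in each of the 3 lines and 0 at least 2-fold higher. Of the 19 that passed the filter on low values in this comparison, 8 were 2-fold lower in each line, beside 4.95% of all 24822 probe sets that passed and 2.24% that were 2-fold higher. By limma, 26.4% of those probe sets passed adjusted p under 0.05, a call that is not counted for the members since the rule used this contrast. PC3-Epi was above all 3 EMT lines for 12 of the 22 probe sets (10 of the 19 that passed, beside 38.3% of all that passed) and below all 3 for 4 (43.0%). These counts follow from how the genes were picked, and 8 of the 19 passed the filter through PC3-Epi alone. The limit itself lay between the MCOLN3 probe set 1557292_a_at, which was just inside it with differences of −1.03, −1.35 and −1.37, and the MCOLN2 probe set 1555465_at, just outside with −0.87, −0.73 and −0.70.

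**Figure D1:**
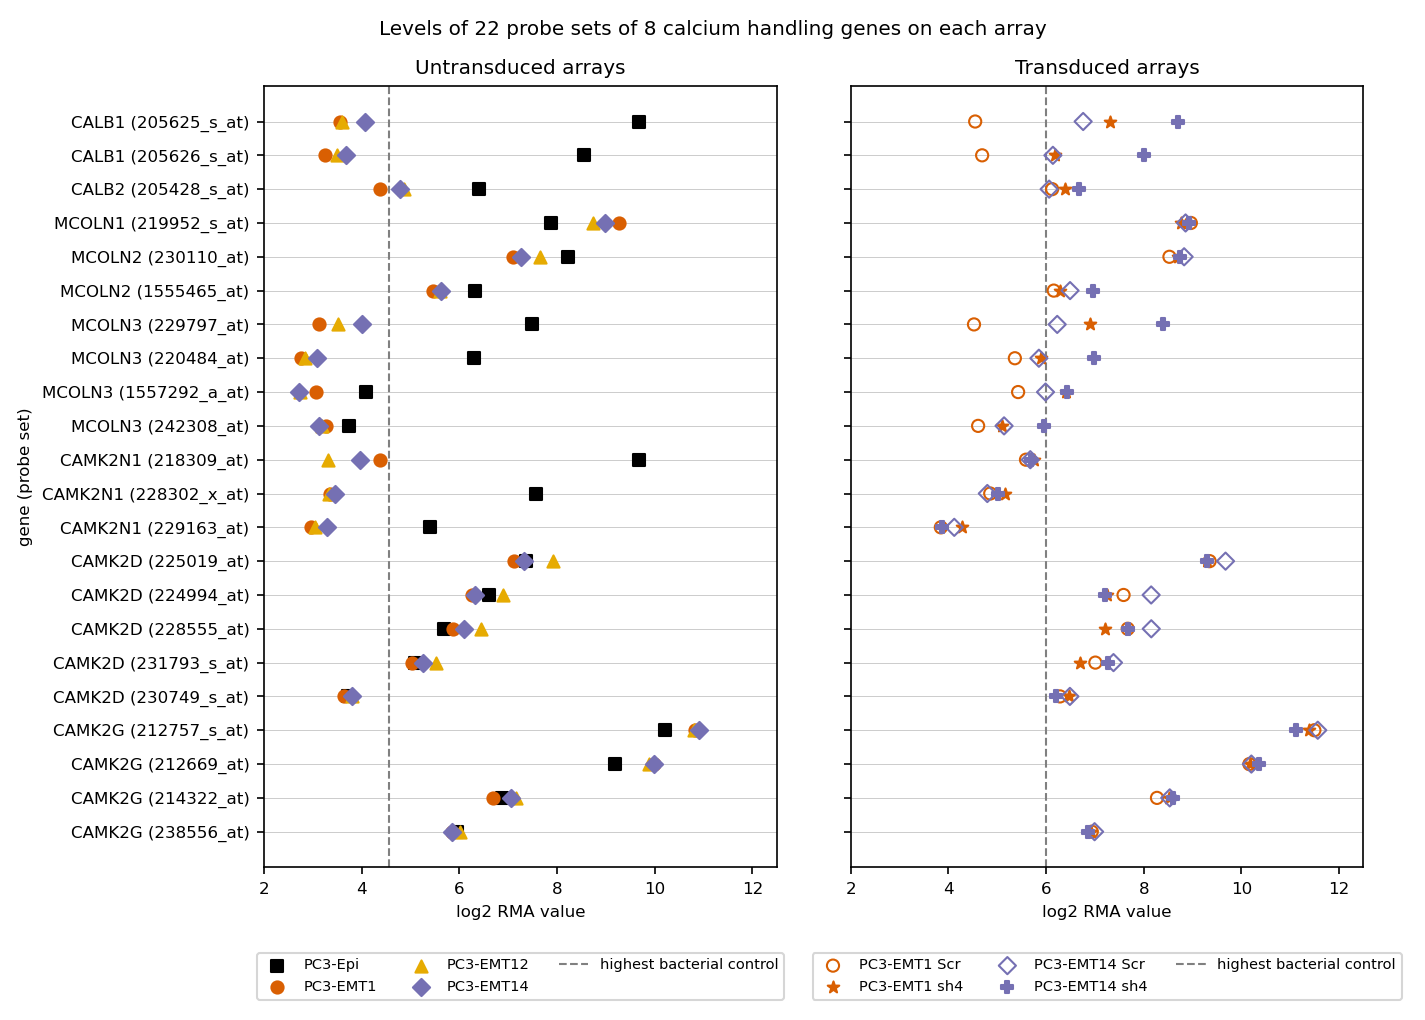
Log2 RMA value of each of the 22 probe sets on each array, with the 4 untransduced arrays on the left and the 4 transduced arrays on the right, 1 point per array. The dashed line is the highest bacterial control (4.56 and 6.00). The EMT lines lie left of that line for CALB1, MCOLN3 and CAMK2N1, where PC3-Epi reached 9.68, 7.48 and 9.68 on the brightest probe set of each gene.

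CALB1, the calbindin that buffers calcium in the cytosol, had one of the widest gaps of the 8 genes. Its brighter probe set, 205625_s_at, read 9.68 in PC3-Epi and 3.55, 3.61 and 4.08 in the EMT lines. All 3 EMT lines were under the bacterial limit, so the measured ratio of 61.1-fold is less firm than the bound: PC3-Epi was at least 34.7-fold above the highest bacterial control. The other probe set, 205626_s_at, read 8.55 in PC3-Epi and 3.26, 3.48 and 3.68 in the EMT lines, at least 15.8-fold above that limit. Both probe sets put PC3-EMT14 highest of the EMT lines, though still at background.

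CALB2, calretinin, showed a smaller gap on its only probe set (205428_s_at). It read 6.41 in PC3-Epi against 4.38, 4.87 and 4.79 in the EMT lines, a mean of 4.68 ± 0.26 (SD, n = 3) and a ratio of 3.31-fold. PC3-EMT12 and PC3-EMT14 remained above the bacterial limit while PC3-EMT1 was under it. PC3-Epi was outside the range of the EMT lines by more than their whole spread.

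The 3 mucolipins did not move together. MCOLN1, the widely expressed lysosomal channel of the family, was the one that was higher in the EMT lines: it read 7.88 in PC3-Epi and 9.27, 8.74 and 8.98 in the EMT lines (mean 9.00 ± 0.26, SD, n = 3), 2.16-fold higher. All of these values were far above the bacterial limit. MCOLN2 was lower in each line on both probe sets. On 230110_at it read 8.22 in PC3-Epi and 7.10, 7.65 and 7.25 in the EMT lines (mean difference −0.88), and on 1555465_at it read 6.32 against 5.45, 5.60 and 5.62 (mean difference −0.77).

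MCOLN3, a channel found on endosomes as well as lysosomes, had the largest gap of the family. Its brightest probe set, 229797_at, read 7.48 in PC3-Epi and 3.14, 3.52 and 4.01 in the EMT lines, at least 7.56-fold above the highest bacterial control (measured ratio 15.2-fold). Probe set 220484_at read 6.31 against 2.76, 2.83 and 3.08, at least 3.35-fold above that limit. The remaining pair, 1557292_a_at and 242308_at, were at background also in PC3-Epi (4.09 and 3.75), and their mean differences of −1.25 and −0.55 lie below what these arrays measure. MCOLN3 and MCOLN2 are next to each other in the order of protein-coding genes. On their brightest probe sets PC3-Epi was above the bacterial limit by a log2 of 2.92 for MCOLN3, with all EMT lines under that limit, and the EMT lines differed from PC3-Epi by −0.88 for MCOLN2.

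The promoters of MCOLN3 and MCOLN1 are shown because these members of the family moved in opposite directions. Both are the 250 bases before the start of the gene as RefSeq gives it on GRCh38.p14, 5′ to 3′ on the strand of the gene, from the minus strand at chr1:85048501-85048750 for MCOLN3 and from the plus strand at chr19:7522374-7522623 for MCOLN1. Capitals mark CACCTG or CAGGTG, the E-box letters to which ZEB1 is known to bind, and CACGTG, the core of the element to which the lysosomal regulators TFEB and TFE3 are known to bind.
MCOLN3: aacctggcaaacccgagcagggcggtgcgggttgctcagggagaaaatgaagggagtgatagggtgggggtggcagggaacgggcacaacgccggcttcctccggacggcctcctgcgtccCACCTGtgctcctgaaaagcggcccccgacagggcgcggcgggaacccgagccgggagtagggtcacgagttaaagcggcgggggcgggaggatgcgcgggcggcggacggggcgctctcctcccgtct
MCOLN1: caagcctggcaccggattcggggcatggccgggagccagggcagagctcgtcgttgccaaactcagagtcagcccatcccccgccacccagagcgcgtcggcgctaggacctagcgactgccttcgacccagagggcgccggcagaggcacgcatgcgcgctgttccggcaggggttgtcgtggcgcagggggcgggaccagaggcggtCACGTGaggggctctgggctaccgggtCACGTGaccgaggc
MCOLN3 held CACCTG once, starting 129 bases before the start, and no CACGTG. MCOLN1 held no CACCTG or CAGGTG on either strand, and CACGTG at 2 places, starting 41 and 14 bases before the start. The table held the promoters of 4 of the 8 genes. CAMK2D (CACCTG, starting 231 bases before the start) and CAMK2G (CAGGTG, 236) also held the first motif, so 3 of the 4 did, beside 17.5% of 35116 promoter windows of this length. CACGTG, which was added after the sequence was seen and shares no position with the first motif, stood in 1 of the 4 and in 6.34% of windows, and at 2 or more places in 0.535%. CALB1, CALB2, CAMK2N1 and MCOLN2 had no entry. CAMK2D and CAMK2G, which held the first motif, differed by 0.08 and 0.64 in the EMT lines on their brightest probe sets. A match describes these letters and shows no binding, and any link between motifs and levels was not tested.

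CAMK2N1, the inhibitor of CaM kinase II, was at background in every EMT line on all 3 of its probe sets. Probe set 218309_at read 9.68 in PC3-Epi and 4.37, 3.31 and 3.97 in the EMT lines, at least 34.6-fold above the highest bacterial control (measured ratio 55.5-fold). Probe set 228302_x_at read 7.57 against 3.35, 3.32 and 3.46, at least 8.06-fold above that limit, and 229163_at read 5.39 against 2.95, 3.04 and 3.28. The suffix x marks probes that can also match other transcripts, which was not tested.

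The kinase subunits themselves stayed well measured on most probe sets. CAMK2G, a widely expressed subunit, read 10.22 in PC3-Epi and 10.84, 10.82 and 10.91 in the EMT lines on 212757_s_at (mean difference 0.64), and 9.18 against 9.98, 9.88 and 9.98 on 212669_at (0.76). The EMT lines varied by an SD of 0.05 and 0.06 on these probe sets, and PC3-Epi lay below all 3. The dimmer CAMK2G probe sets 214322_at and 238556_at differed by 0.09 and −0.04, within the spread of the EMT lines. CAMK2D, the subunit best known from heart muscle, gave mean differences of −0.11 to 0.45 over its 5 probe sets. Of these, 230749_s_at was at background in PC3-Epi (3.72) and in the EMT lines (at most 3.80). On the brightest, 225019_at, PC3-Epi read 7.37, inside the range of 7.12, 7.92 and 7.33 in the EMT lines, with PC3-EMT12 highest. The inhibitor and the subunits it binds thus differed in direction: CAMK2N1 was at background where CAMK2G was as high as or higher than in PC3-Epi and CAMK2D was near even.

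The second comparison asks which of these genes respond when ZEB1 is silenced in mesenchymal cells. It was made within each line between the 2 transduced arrays, sh4 against Scr. The rule that chose the genes did not use these differences, although earlier results of these data were known. The spread behind the limma calls did draw on the untransduced PC3-EMT1 and PC3-EMT14 arrays, whose values the rule used. The calls are thus not independent of the rule. Of the 21 member probe sets that passed the filter in this fit, limma called 2 higher with sh4, 1 of CALB1 and 1 of MCOLN3, and 0 lower, beside 0.296% of all 40869 probe sets called higher and 0.188% called lower (0.484% in either direction). At an unadjusted p under 0.05 in limma, 7 were higher and 2 lower, beside 8.24% and 8.97% of all probe sets tested. The higher ones were all of CALB1, CALB2 or MCOLN3 and the lower ones of CAMK2D, so they include repeat readings of the same genes. In a fit with 1 probe set per gene, 3 of the 8 genes passed unadjusted p under 0.05 in limma, beside 18.6% of all genes in that fit. The median difference was 0.09 over the 21 and 0.01 over all probe sets tested. Both sh4 arrays were above both Scr arrays for 8 of the 21 (22.8% of all probe sets tested) and below both for 5 (19.4%). The 8 belong to CALB1, CALB2, MCOLN3 and CAMK2N1, the last of these at background on every transduced array.

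CALB1 rose with sh4. On 205625_s_at it went from 4.55 to 7.31 in PC3-EMT1, while PC3-EMT14 went from 6.76 to 8.71, a mean log2 difference of 2.35 or 5.11-fold (SE 0.33, 95% interval 1.59 to 3.12, limma adjusted p = 0.0401). On 205626_s_at it went from 4.69 to 6.19 and from 6.14 to 8.01, a mean of 1.68 that missed the threshold (95% interval 1.01 to 2.36, limma adjusted p = 0.0659). Both sh4 arrays were above both Scr arrays on each probe set. The Scr array of PC3-EMT1 was under the bacterial limit of 6.00 on both, so the change in that line is measured from background.

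MCOLN3 rose with sh4 on its brightest probe set. On 229797_at it went from 4.52 to 6.91 in PC3-EMT1, while PC3-EMT14 went from 6.23 to 8.40, a mean of 2.28 or 4.85-fold (SE 0.20, 95% interval 1.82 to 2.74, limma adjusted p = 0.00676), with the Scr array of PC3-EMT1 again under 6.00. The other 3 probe sets were dimmer and missed the threshold: 220484_at differed by 0.84 (95% interval 0.40 to 1.27, limma adjusted p = 0.111), 1557292_a_at by 0.72 and 242308_at by 0.65. Of these, 242308_at was under 6.00 on all 4 transduced arrays and 220484_at on 3 of them, so their differences lie at or near background. Of the members, CALB1 on both probe sets and MCOLN3 on 229797_at were at least 2-fold higher in both lines, beside 0.176% of all probe sets tested, and 0 were 2-fold lower (0.11%).

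These calls lean on the untransduced arrays, which entered the fit only to estimate the spread. With the 4 transduced arrays alone, limma called 0 probe sets of the whole table at adjusted p under 0.05 and 5527 at unadjusted p under 0.05. The differences were then the same by construction, with 95% intervals of 1.72 to 2.99 for CALB1 (limma adjusted p = 0.284) and 1.94 to 2.62 for MCOLN3 (limma adjusted p = 0.216). Leaving out either untransduced array also gave 0 calls, but this repeats the same fit, since a single untransduced array adds nothing to the spread. CALB1 passed the threshold in 9 of 16 alternatives and MCOLN3 in 11 of 16. These were read on 205625_s_at and 229797_at, except for the alternative that took the mean of all probe sets of the gene. Without the line as a block neither passed (limma adjusted p = 0.315 and 0.301), and without the sh4 array of PC3-EMT1 or of PC3-EMT14 CALB1 did not pass (0.0566 and 0.170).

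CAMK2N1 stayed at background with sh4. On 218309_at it went from 5.59 to 5.76 in PC3-EMT1, while PC3-EMT14 went from 5.68 to 5.69, all under the bacterial limit of 6.00. The mean difference was 0.09 (95% interval −0.26 to 0.44, limma adjusted p = 0.809). On 228302_x_at the difference was 0.26 (95% interval −0.04 to 0.56, limma adjusted p = 0.353), also with every array under 6.00. A gain below that limit could not be measured, so the arrays bound CAMK2N1 with sh4 only from above.

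**Figure D2:**
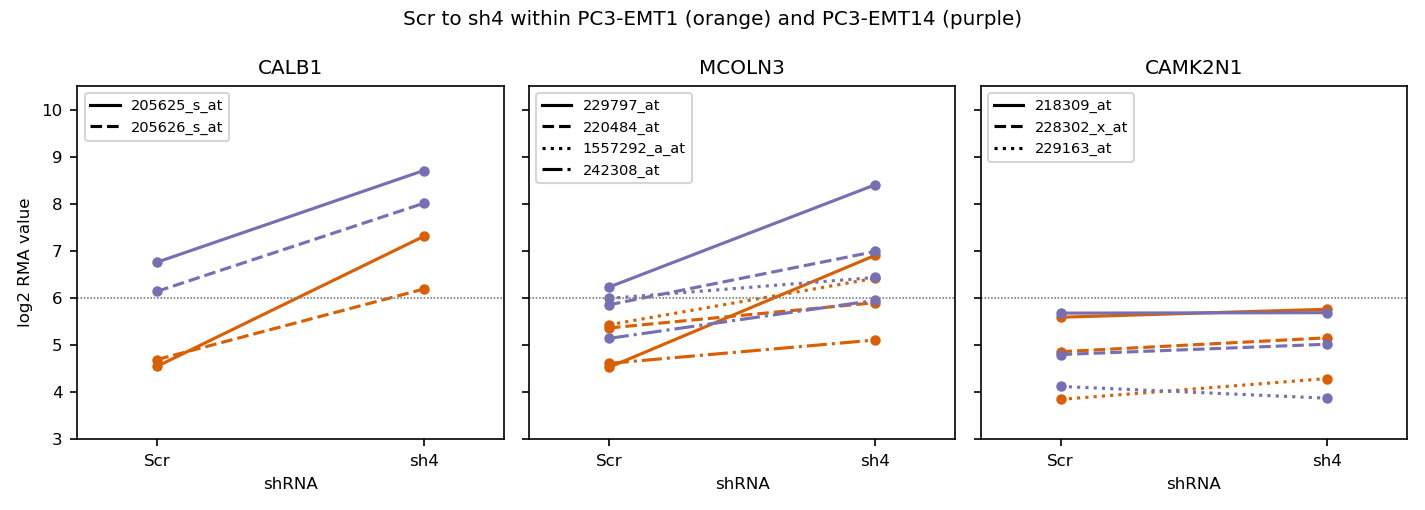
Log2 RMA value with Scr and with sh4 for each probe set of CALB1, MCOLN3 and CAMK2N1, 1 line per cell line and probe set, in orange for PC3-EMT1 and purple for PC3-EMT14. The dotted line marks 6.00, the top bacterial control of this set. CALB1 205625_s_at and MCOLN3 229797_at climb in both lines by 1.95 to 2.76, while CAMK2N1 stays under the dotted line.

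The 2 lines carried unequal levels of the genes that rose. With sh4, CALB1 205625_s_at was higher in PC3-EMT14 than in PC3-EMT1 by 1.40, and MCOLN3 229797_at read 8.40 against 6.91. With Scr both probe sets were above 6.00 in PC3-EMT14 alone (6.76 and 6.23), and on the untransduced arrays both lines were at background, so no exact gap can be given for either. Macrophage markers read up to 6.79 on the transduced arrays, so the Scr values of PC3-EMT14 may also be near background. With 1 array per line and shRNA, gaps between lines have no test.

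The other members gave smaller differences with sh4, and none passed the threshold. CALB2 went from 6.12 to 6.39 in PC3-EMT1, while PC3-EMT14 went from 6.06 to 6.67, a mean of 0.44 (95% interval 0.09 to 0.78, limma adjusted p = 0.207), with no overlap between shRNAs. MCOLN1 differed by −0.07 (95% interval −0.41 to 0.27, limma adjusted p = 0.860) and MCOLN2 by 0.04 on 230110_at (95% interval −0.26 to 0.34, limma adjusted p = 0.912) and 0.30 on 1555465_at (95% interval −0.06 to 0.65, limma adjusted p = 0.367). The lowest values were those of CAMK2D: 224994_at went from 7.59 to 7.25 and from 8.15 to 7.20, a mean of −0.64 (95% interval −1.04 to −0.25, limma adjusted p = 0.140), and 228555_at from 7.67 to 7.20 and from 8.15 to 7.67, a mean of −0.48 (limma adjusted p = 0.149). Its brightest probe set, 225019_at, differed by −0.22. The 4 CAMK2G probe sets differed by −0.28 to 0.16.

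Genes with the pattern nearest to each of the 3 lost members were sought over the 5 within-set differences (3 EMT lines minus PC3-Epi, 2 lines sh4 minus Scr), by the mean absolute gap across 11921 genes, with no test. The first 3 of these differences are those that the rule used, and the EMT values of the 3 members behind them are at background, as is CAMK2N1 on every transduced array, so the gaps describe measured values and their order is loose. Nearest to CALB1 were the epithelial transcription factors EHF (mean gap 0.55) and OVOL2 (0.61) and the secreted iron-carrier protein LCN2 (0.63). EHF differed from PC3-Epi by −5.80, −5.63 and −5.58 in the EMT lines and by 1.15 and 2.32 with sh4. Nearest to MCOLN3 were the adhesion gene CNTNAP2 (0.39), the fatty acid elongase ELOVL7 (0.47) and the epithelial adhesion gene EPCAM (0.47), and EPCAM differed by −3.70, −3.07 and −3.28 and by 2.14 and 1.79. Nearest to CAMK2N1 were the small GTPase RAB25 (0.30), the calcium-binding S100A9 (0.32) and the epithelial transcription factor GRHL2 (0.59), and RAB25 differed by −5.82, −6.06 and −5.98 and by 0.56 and −0.01. Among the members themselves, CAMK2N1 ranked 12 and MCOLN3 17 in closeness to CALB1, and the mean gap between CAMK2N1 and MCOLN3 was 2.00. The 5 differences share arrays and make a weak measure of likeness.

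Other calcium genes were taken from 8 lists that left the members out. Of 120 such genes 110 were on the arrays, and 75 were tested in the EMT comparison at 1 probe set per gene, where limma at adjusted p under 0.05 called 13 higher and 5 lower. That is 17.3% higher and 6.67% lower, beside 13.0% and 14.9% of all 11921 genes tested (27.8% in either direction). Without PC3-EMT14 the count was 7 in place of 18.

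**Figure D3:**
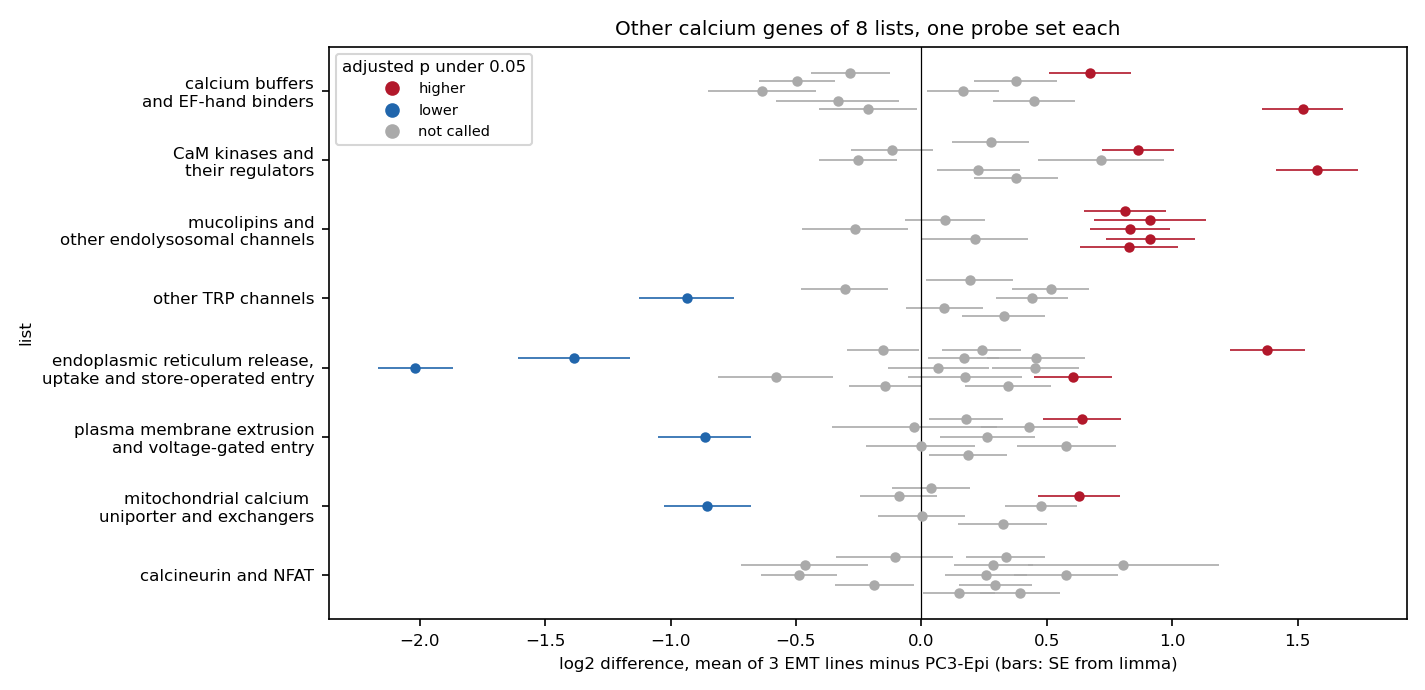
Log2 difference between the mean of the 3 EMT lines and PC3-Epi for the 75 tested genes of the 8 lists, 1 point per gene with the limma SE as bar, red where called higher, blue where called lower and grey where not called. The endolysosomal list has 5 red points between 0.81 and 0.91, and the lowest point is ATP2C2 at −2.02.

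Channels and regulators of endosomes and lysosomes, the compartments of the mucolipins, had 5 of 8 genes higher and 0 lower, beside 13.0% and 14.9% of all genes tested. The list had a median difference of 0.82 beside 0.07 over all genes tested, and it was chosen with earlier results of these data known. The 3 with the largest differences were the 2-pore channel TPCN1 (0.91, limma adjusted p = 0.0175, with 0.06 and 0.58 on its other probe sets), the ATP-gated channel P2RX4 (0.91, limma adjusted p = 0.0322) and the lysosomal potassium channel TMEM175 (0.83, limma adjusted p = 0.0166). The lysosomal chloride transporter CLCN7 (0.83) and the transcription factor TFE3 (0.81) made up the count and were named after their values were seen. The 3 that were not called lay lower, and on TFE3 and CLCN7 the other probe sets ranged from −0.20 to 0.77 and from 0.11 to 0.69. MCOLN1 lay on the same side at 1.11, and MCOLN2 and MCOLN3 on the other.

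Among calcium buffers, 2 of 10 were higher and 0 lower, beside 13.0% and 14.9% of all genes tested, with a list median of −0.02. The higher ones were RCN3, an EF-hand protein of the endoplasmic reticulum (1.52, limma adjusted p = 0.00294), and NUCB1 of the Golgi (0.67, limma adjusted p = 0.0320). The same shares of all genes stand beside the counts of the lists that follow. Among CaM kinases and regulators, 2 of 8 were higher, the kinase CAMK1 (1.58, limma adjusted p = 0.00274, with −0.11 on its other probe set) and PPM1F, a phosphatase that acts on CaM kinases (0.86, limma adjusted p = 0.0114, other probe sets 0.23 to 0.67). In the list of reticulum release, uptake and store-operated entry, 2 of 14 were higher and 2 lower. The secretory-pathway calcium pumps ATP2C2 (−2.02, limma adjusted p = 0.000957) and ATP2C1 (−1.38, limma adjusted p = 0.0103) were the lower pair, although their other probe sets ranged from −4.86 to 0.19 and from −1.01 to 0.28. The entry channel ORAI3 was higher (1.38, limma adjusted p = 0.00317), as was ORAI1 (0.61), which was named after its value was seen.

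The calls of the remaining lists were as follows. The plasma membrane calcium pump ATP2B1 was lower (−0.86, limma adjusted p = 0.0229) and the channel subunit CACNB3 higher (0.64, limma adjusted p = 0.0316) among 9 genes of extrusion and voltage-gated entry. The uniporter regulator MICU2 was lower (−0.85, limma adjusted p = 0.0191) and the mitochondrial inner membrane protein LETM1 higher (0.63, limma adjusted p = 0.0376, with 0.03 and 0.33 on its other probe sets) among 7 mitochondrial genes. TRPM7, a channel fused to a kinase, was the only one of 7 other TRP channels to be called (−0.94, limma adjusted p = 0.0192, other probe sets −0.27 to 0.26), and 0 of 12 calcineurin and NFAT genes were called, with 3 at unadjusted p under 0.05 in limma, beside 44.0% of all genes tested.

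With sh4, limma called 0 of the 101 tested genes of these lists at 1 probe set per gene, beside 0.444% of all 16662 genes called higher and 0.186% lower (0.63% in either direction). At unadjusted p under 0.05 in limma there were 16, beside 17.4% of all genes tested. ATP2C2 differed by 0.40 with sh4 on the probe set counted, and its 2 others ranged from −0.18 to 1.07. The medians of the 8 lists lay between −0.06 and 0.12, beside 0.02 over all genes. The 5 endolysosomal genes that were higher in the EMT lines were among the 101, and the 8 genes of that list had a median of −0.01 with sh4.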

How the data were processed

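The authors deposited 1 table of log2 RMA values (affy, per the submitters' processing notes) for 8 arrays, used here without change. Folds of probe sets near background are less certain than those of bright ones. The labels give groups, and the replicate number is the cell line number, which pairs the arrays of a line (differences between lines correlated at 0.27 to 0.40 across probe sets). The array annotation named 41091 probe sets with 1 gene symbol, 1801 with several and 11721 with none, besides 62 controls. The members and gene lists were chosen with earlier results of these data known.

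Differences were fitted with limma 3.58.1 in R 4.3.3, using eBayes, and adjusted by Benjamini-Hochberg across every probe set with at least 1 array of the comparison at log2 5 or above, at a threshold of 0.05. EMT minus PC3-Epi used the 4 untransduced arrays (2 residual degrees of freedom, prior 4.14), and PC3-Epi, with 1 array, was given the spread of the EMT lines. The sh4 minus Scr fit used all 6 arrays from PC3-EMT1 or PC3-EMT14 with the line as a block (2 residual degrees of freedom, prior 5.59), and both differences lay within the transduced set. No separate cultures are described as replicates. The p-values for EMT minus PC3-Epi rest on the spread between the 3 EMT populations. Those for sh4 minus Scr rest on how the gap between the 2 lines varied among EMT, Scr and sh4 arrays. With 1 array per line and condition, technical and biological spread cannot be told apart. A gene of a list was represented by its probe set with the highest mean over 8 arrays. Apart from all members, genes were named if they checked the lines, were among the 3 largest called differences of a list or the 3 nearest patterns. Scripts were tested on simulated data. Alternatives were no filter or a filter at 7, 1 probe set or the mean of probe sets per gene, quantile normalization, 32 added on the linear scale, eBayes trend and robust options, no block, the 4 transduced arrays alone, fold limits of 1.5 and 3, and leaving out each array. Some list genes were not analysed here.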

Additional observations from a re-analysis of the deposited data

Results flagged for a closer look

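Of the member probe sets, 4 moved in opposite directions with sh4 in the 2 lines, and this difference between lines was not tested. The share of all probe sets that did so was not computed, so the count only describes these small differences. MCOLN1 219952_s_at differed by −0.21 in PC3-EMT1 and 0.07 in PC3-EMT14. MCOLN2 230110_at differed by 0.17 and −0.09. CAMK2N1 229163_at, which was at background on all 4 transduced arrays, differed by 0.44 and −0.25. CAMK2D 230749_s_at differed by 0.19 and −0.28.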

How the results depend on the processing

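For EMT minus PC3-Epi, 158 single values of members moved by less than 1 SD between the lines and 21 by more. For sh4 minus Scr, 277 kept direction and side of the threshold, 12 lost the call, 4 gained it and 6 reversed. Probe sets called by limma for EMT minus PC3-Epi went from 6563 to 3496 with 1 probe set per gene and 3200 with the mean of probe sets, where fewer features are tested, and to 3314 to 9160 leaving out 1 array (3314 without PC3-EMT14). The list genes called went from 18 to 7 to 23 leaving out 1 array. For sh4 minus Scr, 198 probe sets were called in all, 311 with the eBayes trend, 10 with no replicate block, 0 with the 4 transduced arrays, and 0 to 592 leaving out 1 array. The 2 member calls became 0 with 32 added, 0 with no replicate block, 0 with the 4 transduced arrays and 0 to 3 leaving out 1 array, and the count was 2 with no filter, a filter at 7, 1 probe set per gene, quantile normalization and the robust option. The number 2-fold lower in all EMT lines went from 1229 to 3068 at 1.5-fold and 447 at 3-fold, 2-fold higher from 555 to 1798 and 220, sh4 higher from 72 to 280 and 27, and sh4 lower from 45 to 380 and 3. Differences between sh4 and Scr that reversed when 1 array was left out were those of MCOLN1 219952_s_at (range −0.25 to 0.12), MCOLN2 230110_at (−0.062 to 0.14), CAMK2N1 218309_at (−0.072 to 0.25) and CAMK2D 230749_s_at (−0.26 to 0.18). The cause of the other shifts was not tested. Signal over background limits CALB1, MCOLN3 and CAMK2N1 in the EMT lines and CAMK2N1 on every transduced array.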

Other observations

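Next to MCOLN2 and MCOLN3 lies LPAR3, a receptor for lysophosphatidic acid that couples to calcium release. LPAR3 (231192_at) read 8.08 in PC3-Epi and a mean of 7.83 in the 3 EMT lines, a difference of −0.25 (limma adjusted p = 0.395). With sh4 it was lower than with Scr by 1.25 in PC3-EMT1 and 1.13 in PC3-EMT14, a mean log2 difference of −1.19 (limma adjusted p = 0.0340), while MCOLN3 rose and MCOLN2 differed by 0.04. On the other side of MCOLN3, the dynein gene DNAI3 was at background in PC3-Epi and the EMT lines (2.50 and 2.49). As for CALB1 and MCOLN3, this call was lost with the 4 transduced arrays alone, where limma called 0 probe sets and 5527 had an unadjusted p under 0.05. LPAR3 was named after its value was seen.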
